A study of Homo sapiens with 12 samples.

Results

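Heme is built from glycine and succinyl-CoA by a chain of enzymes that begins and ends in the mitochondrion and runs through the cytosol in between. 9 genes of this chain were followed here across stages and genotypes of human embryonic stem cell (hESC) differentiation into blood. They are ALAS1, ALAS2, ALAD, UROS, UROD, CPOX, PPOX, FECH and the mitochondrial glycine carrier SLC25A38, chosen by symbol as a fixed pathway list, and they make up 9 of the 56266 genes in each library. All 9 passed the filter on low values. The rule uses symbols and no measured value.

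Gene expression was measured by RNA sequencing in 10 libraries, 2 for each of 5 groups, and is given as TPM, a transcript abundance corrected for transcript length and library size. H1 is an established hESC line that served as the wild type. GATA2-/- cells derive from H1 by TALEN targeting of both GATA2 alleles with a PGK-neomycin cassette and come from 1 targeted clone, so the genotype and the clone cannot be told apart. The groups were undifferentiated GATA2-/- hESCs, H1 and GATA2-/- hemogenic endothelium (HE, sorted as CD34+CD31+CD43- on day 8) and H1 and GATA2-/- hematopoietic progenitor cells (HPCs, sorted as CD34+CD43+ on day 9). All sorted cells came from co-culture on OP9, a mouse bone marrow stromal line. 2 further samples, of undifferentiated H1, were not analysed here, so the hESC stage has the GATA2-/- genotype alone. The file headers of the 2 hESC libraries differ in a number after a P, which may be a passage, and for the sorted groups nothing says whether the 2 libraries came from separate cultures. The p-values measure the spread between these libraries, which may be technical. Library sizes are not known from TPM, so no counting error could be given.

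The stage labels were set against marker genes. POU5F1, a core pluripotency factor, led the 8 pluripotency markers in the hESC libraries at 3332 and 2855 TPM. 10 endothelial markers summed to 3544 and 3558 TPM in H1 HE, 4547 and 4066 TPM in GATA2-/- HE and between 694 and 1075 TPM in the 4 HPC libraries. SPN, which encodes the CD43 antigen used in the sort, stood at 8.81 and 4.86 TPM in H1 HE, 7.48 and 1.76 in GATA2-/- HE, 104 and 108 in H1 HPCs and 98.0 and 106 in GATA2-/- HPCs. PTPRC, encoding the pan-leukocyte antigen CD45, was at 0 in all 4 HE libraries and at most 3.09 TPM in the HPCs. GATA2 itself was at 2.05 and 5.54 TPM in the hESCs, 107 and 78.0 in H1 HE, 111 and 94.1 in GATA2-/- HE, 290 and 204 in H1 HPCs and 112 and 83.8 in GATA2-/- HPCs. The cassette is described by the study both as inserted into an exon and as replacing it, and a gene-level value counts reads from any exon that remains, so these values do not check the genotype labels.

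The first step of the pathway, the condensation of glycine with succinyl-CoA, limits its rate and is served by a pair of genes. ALAS1 is the form used by most tissues and ALAS2, on the X chromosome, the erythroid form. SLC25A38 brings glycine into the mitochondrion, ALAD joins the product into the first ring, UROS and UROD shape the porphyrin in the cytosol, CPOX and PPOX oxidise it in the mitochondrion, and FECH inserts iron. In developing red cells ALAS2 is known to be driven by GATA1 and its message is held back by iron regulatory proteins when iron is scarce.

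On GRCh37 (hg19) the genes lie apart from each other. ALAS2 spans chrX:55035488-55057410 on the minus strand and ALAS1 spans chr3:52232102-52248343 on the plus strand. UROD spans chr1:45476622-45481247, CPOX chr3:98298290-98312492 and FECH chr18:55211609-55253964. The 250 bases before the start sites of ALAS2, CPOX and ALAS1 are shown because ALAS2 and CPOX had the largest log2 rises of the 9 genes from hESC to HPC, while ALAS1, which serves the same reaction as ALAS2, fell. They are RefSeq promoters on GRCh38.p14, at chrX:55030978-55031227 (minus strand), chr3:98593612-98593861 (minus strand) and chr3:52197833-52198082 (plus strand), written 5′ to 3′ along the gene. Capitals mark the GATA words, which are AGATAA, its form ending in G and the forms of both that begin with T. They were searched on both strands, and TTATCT is the reverse complement of the first.
ALAS2: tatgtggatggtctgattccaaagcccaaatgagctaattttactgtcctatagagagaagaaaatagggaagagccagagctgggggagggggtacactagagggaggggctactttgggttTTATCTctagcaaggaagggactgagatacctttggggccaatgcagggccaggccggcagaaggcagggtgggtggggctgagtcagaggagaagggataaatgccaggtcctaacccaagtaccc
CPOX: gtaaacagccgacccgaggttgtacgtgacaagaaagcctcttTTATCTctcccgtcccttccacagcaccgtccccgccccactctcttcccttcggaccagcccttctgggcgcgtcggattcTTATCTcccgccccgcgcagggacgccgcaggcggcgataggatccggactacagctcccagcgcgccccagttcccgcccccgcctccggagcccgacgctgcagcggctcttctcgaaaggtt
ALAS1: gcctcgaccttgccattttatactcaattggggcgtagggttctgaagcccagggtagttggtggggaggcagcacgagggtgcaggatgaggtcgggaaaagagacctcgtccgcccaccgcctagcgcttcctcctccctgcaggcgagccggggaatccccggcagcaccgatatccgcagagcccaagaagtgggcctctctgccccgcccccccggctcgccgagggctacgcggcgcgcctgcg
ALAS2 held 1 such word, starting 127 bases before the start site, and CPOX held 2, starting 207 and 125 bases before it. ALAS1 held none. The words were in 22.33% of 35116 RefSeq promoters of the same length, so a match is a description of the letters and not of a bound site. Of the other members, ALAD and PPOX each had a word before 1 of 2 listed starts, and SLC25A38, UROD and FECH had none. The GC box GGGCGG, searched likewise and present in 42.64% of promoters, occurred 3 times in CPOX, 2 times in ALAS1 and not in ALAS2.

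ALAS2 was the member that differed most between stages. It stood at 0.38 and 0.19 TPM in GATA2-/- hESCs. In HE it read 22.4 and 13.5 TPM in H1 and 6.47 and 1.93 TPM in GATA2-/- cells. In HPCs it read 241 and 310 TPM in H1 and 419 and 372 TPM in GATA2-/- cells. From lowest to highest the groups ran GATA2-/- hESC, GATA2-/- HE, H1 HE, H1 HPC and GATA2-/- HPC, and no neighbours in this order overlapped.

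ALAS1 varied over a much narrower range. It was highest in the hESCs, at 43.0 and 41.2 TPM, and lay between 15.9 and 29.3 TPM in the 8 sorted libraries. It read 25.7 and 19.4 TPM in H1 HE, 29.3 and 26.2 in GATA2-/- HE, 23.5 and 19.2 in H1 HPCs and 21.5 and 15.9 in GATA2-/- HPCs. The H1 HE, H1 HPC and GATA2-/- HPC values overlapped each other.

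The share of ALAS transcripts that came from ALAS2 followed from these levels. It was 0.876% and 0.459% in the hESCs, 46.6% and 41.0% in H1 HE, 18.1% and 6.87% in GATA2-/- HE, 91.1% and 94.2% in H1 HPCs and 95.1% and 95.9% in GATA2-/- HPCs. The summed TPM of both genes stayed between 28.1 and 48.1 in the hESC and HE libraries and reached 265 to 440 in the HPCs. No test was run on this share.

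**Figure D1:**
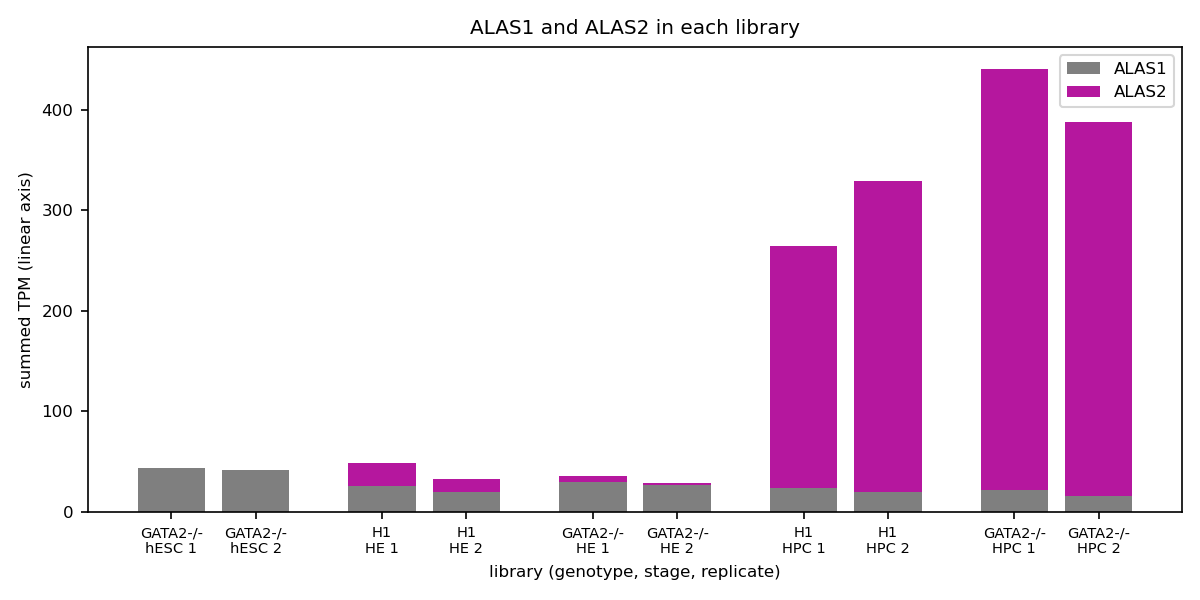
Stacked bars of ALAS1 (grey) and ALAS2 (purple) in each of the 10 libraries, in TPM on a linear axis. ALAS1 makes up most of each hESC and HE bar, though ALAS2 reaches 46.6% and 41.0% in H1 HE. ALAS2 makes up more than 91% of each HPC bar.

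The remaining enzymes were present in every library. UROD, the uroporphyrinogen decarboxylase, was the most abundant member in 8 of the 10 libraries, with 102 and 95.1 TPM in hESCs, 130 and 86.0 in H1 HE, 80.0 and 69.8 in GATA2-/- HE, 272 and 365 in H1 HPCs and 321 and 348 in GATA2-/- HPCs. Only in the 2 GATA2-/- HPC libraries did ALAS2 exceed it. UROS, which closes the ring, was at 48.2 and 40.8 TPM in hESCs, 59.6 and 56.3 in H1 HE, 49.7 and 45.0 in GATA2-/- HE, 105 and 127 in H1 HPCs and 107 and 129 in GATA2-/- HPCs. For both genes the 4 HPC libraries lay above all the others, and the genotypes overlapped within the HPCs.

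CPOX, the coproporphyrinogen oxidase, rose in steps. It read 20.3 and 19.1 TPM in hESCs, 60.2 and 57.1 in H1 HE, 48.7 and 51.1 in GATA2-/- HE, 96.1 and 113 in H1 HPCs and 129 and 96.3 in GATA2-/- HPCs, and its stages did not overlap. PPOX, the next oxidase, gave 27.6 and 21.6 TPM in hESCs, 31.1 and 30.1 in H1 HE, 26.9 and 27.2 in GATA2-/- HE, 63.1 and 54.3 in H1 HPCs and 45.4 and 42.5 in GATA2-/- HPCs. FECH, the ferrochelatase, gave 21.2 and 17.2 TPM in hESCs, 20.4 and 10.8 in H1 HE, 7.60 and 11.96 in GATA2-/- HE, 35.6 and 35.8 in H1 HPCs and 41.1 and 53.7 in GATA2-/- HPCs. PPOX and FECH were both highest in the HPCs, and for both genes the hESC and HE ranges overlapped.

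ALAD overlapped between the sorted stages, while SLC25A38 was higher in every HPC library than in every HE library. Neither gene was called between these stages in the tests given below. ALAD, the second enzyme, was at 9.22 and 11.8 TPM in hESCs and between 17.0 and 34.5 TPM in the sorted libraries, and that whole range fell within the 2 GATA2-/- HE libraries. SLC25A38 was at 45.6 and 40.6 TPM in hESCs, between 16.01 and 21.7 TPM in HE and between 24.4 and 34.2 TPM in HPCs. The summed TPM of the 9 genes was 317 and 288 in hESCs, 390 and 309 in H1 HE, 287 and 285 in GATA2-/- HE, 886 and 1079 in H1 HPCs and 1127 and 1120 in GATA2-/- HPCs. Without ALAS2 the HPC sums were between 645 and 769 TPM, still above the 281 to 368 TPM of the HE and hESC libraries.

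**Figure D2:**
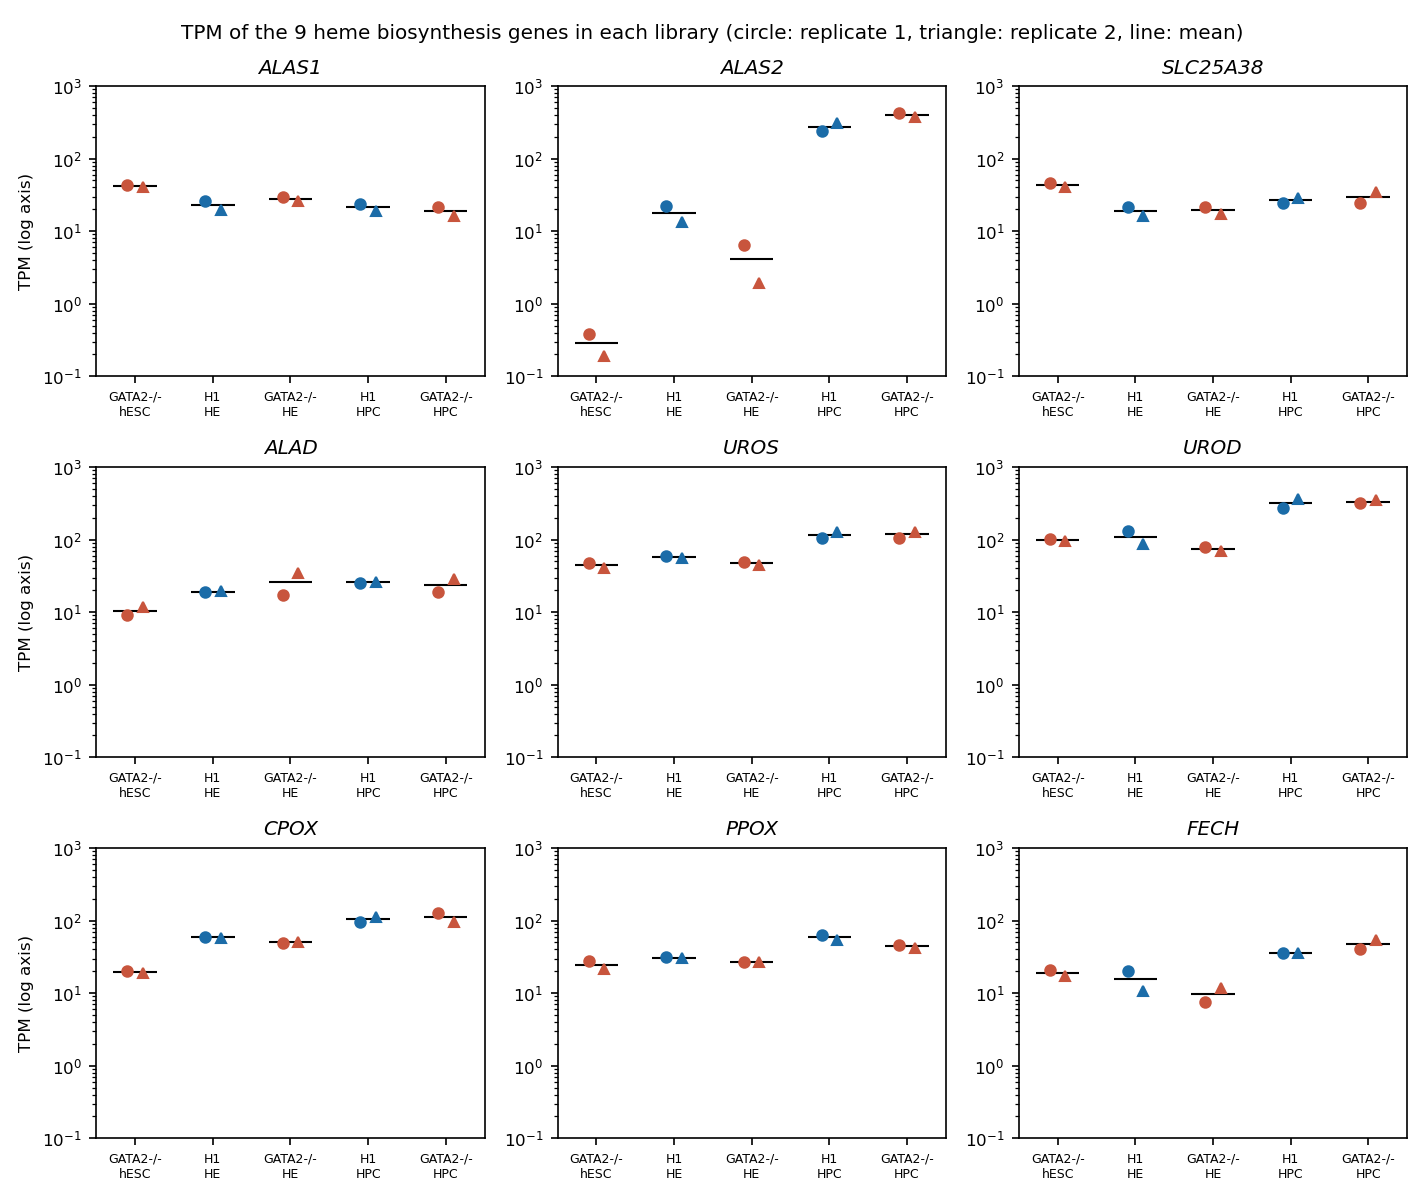
TPM of each of the 9 genes on a log axis, by group, with a circle for replicate 1, a triangle for replicate 2 and a line at the mean (blue H1, red GATA2-/-). ALAS2 spans from 0.19 to 419 TPM, whereas ALAS1, SLC25A38 and ALAD stay between 9.22 and 45.6 TPM.

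Some of these values rest on sequence that other genes also carry. Exact 30-base stretches shared with transcripts of other genes made up 23.1% of PPOX, mostly with its overlapping neighbour B4GALT3, 11.2% of SLC25A38, mostly with its pseudogene SLC25A38P1, and 7.74% of UROD, shared with the overlapping HECTD3. They made up at most 4.60% of FECH, CPOX, UROS and ALAD and none of ALAS1 or ALAS2. B4GALT3 averaged 50.8 TPM in H1 HE and 49.6 TPM in H1 HPCs, and HECTD3 29.5 and 24.8 TPM, while SLC25A38P1 was listed at 0 in all 10 libraries. Whether strand was used in counting is not given in the sources used here, so reads of overlapping partners could have been exchanged.

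The passage from HE to HPC was compared within each genotype by limma on log2(TPM + 1). In H1, 6 of the 9 genes were higher in HPCs than in HE at an adjusted p under 0.05 and none was lower, where 3.32% of the 21543 genes tested were called higher and 6.59% lower. ALAS2 rose by 3.90 ± 0.41 log2 units (SE, adjusted p = 0.000821, n = 2 and 2), that is 15.3 times in mean TPM. UROD rose by 1.56 ± 0.22 (adjusted p = 0.00289), or 2.94 times in mean TPM, and UROS by 0.98 ± 0.17 (adjusted p = 0.00865). PPOX rose by 0.91 (adjusted p = 0.0146), CPOX by 0.82 (adjusted p = 0.0229) and FECH by 1.21 (adjusted p = 0.0499). With 1 library left out the FECH estimate ran from 0.78 to 1.63. The other genes did not pass, with a log2 fold change of -0.07 for ALAS1 (95% interval -0.59 to 0.45), 0.41 for ALAD and 0.49 for SLC25A38. The median log2 fold change was 0.91 over the 9 genes and -0.01 over all genes tested.

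Without GATA2 the same 6 genes rose from HE to HPC. The group means of this comparison share no library with those in H1, but both comparisons take their spread from the fit on all 10 libraries. No member was called lower, and 5.5% of all genes tested were called higher and 7.24% lower. ALAS2 rose by 6.40 ± 0.41 log2 units (adjusted p = 0.000158), from a mean of 4.20 to 395 TPM. UROD rose by 2.14 ± 0.22 (adjusted p = 0.000579), FECH by 2.18 ± 0.32 (adjusted p = 0.00302), UROS by 1.29 (adjusted p = 0.00192), CPOX by 1.15 (adjusted p = 0.00401) and PPOX by 0.68 (adjusted p = 0.0414). ALAS1 did not pass at -0.56 (95% interval -1.07 to -0.04, adjusted p = 0.157), though it was lower in both HPC libraries than in both HE libraries. The other values that did not pass were 0.57 for SLC25A38 and -0.05 for ALAD. The ALAD value turned to 0.10 when mitochondrial and globin genes were taken out of the TPM total.

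The calls changed with the libraries and the genes in the fit. When the spread was estimated from the 4 libraries of each comparison alone, over the same 21543 genes, no member and no other gene passed in either genotype, ALAS2 having an adjusted p of 0.0767 in H1 and 0.0576 in GATA2-/- cells. With the same 4 libraries and the filter on low values applied within them, which takes out genes absent from those libraries, 5 members passed in each genotype. With 1 library left out, H1 kept 4 genes without HE replicate 1 or HPC replicate 1, 3 without HPC replicate 2 and 2 without HE replicate 2, with ALAS2 and UROD passing each time, while GATA2-/- cells kept 5 each time and PPOX was lost. In bulk sorted cells, a larger share of cells expressing a gene and more RNA per cell cannot be told apart, here or below.

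**Figure D3:**
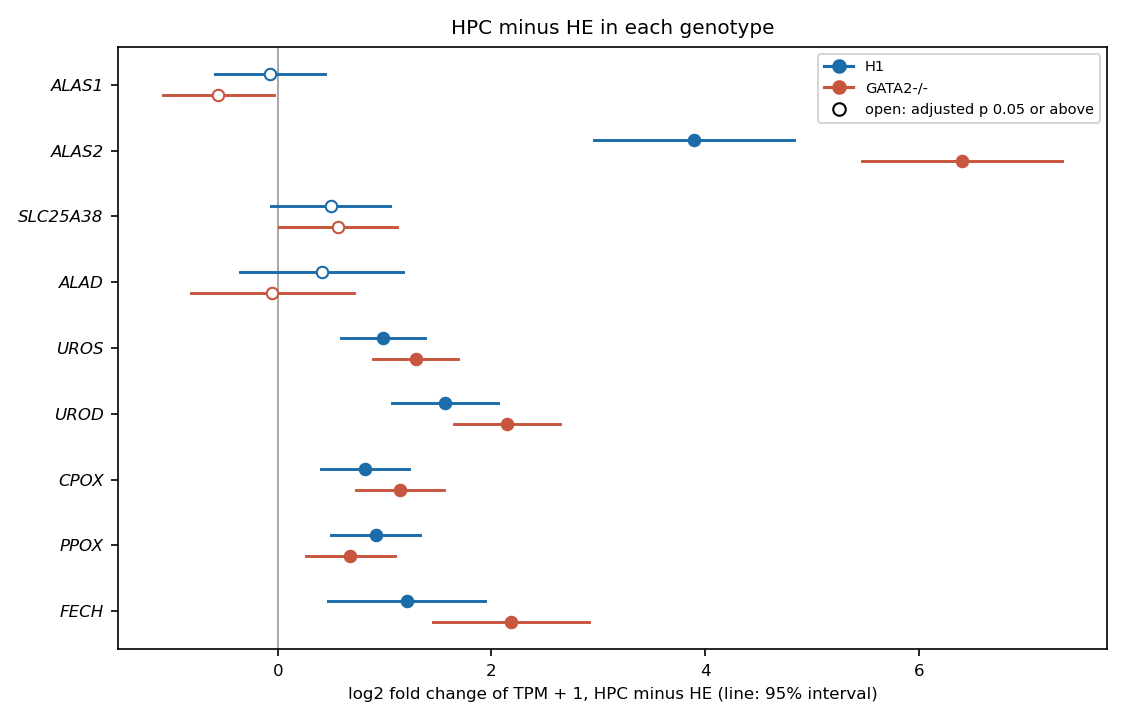
Log2 fold change of TPM + 1 from HE to HPC for each gene in H1 (blue) and GATA2-/- cells (red), with 95% intervals, filled where the adjusted p is under 0.05. 6 genes are filled in both genotypes, and ALAS1, SLC25A38 and ALAD are open in both.

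GATA2-/- cells could also be followed from the hESC stage. From hESC to HE, 3 of the 9 genes rose and 1 fell, where 13.9% of genes tested rose and 16.1% fell, so the members' counts stand on a high background. CPOX rose by 1.30 ± 0.18 log2 units (adjusted p = 0.000834), ALAS2 by 1.87 ± 0.41 (adjusted p = 0.00911) and ALAD by 1.14 ± 0.34 (adjusted p = 0.0312), and SLC25A38 fell by 1.12 ± 0.24 (adjusted p = 0.00831). CPOX passed whichever library was left out. The count fell to 1 without hESC replicate 1 and to 2 without hESC replicate 2 or without HE replicate 2.

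From hESC to HPC, 7 genes rose and 1 fell, against 14.2% and 16.4% of genes tested. ALAS2 rose by 8.27 ± 0.41 on the log2 scale (adjusted p = 3.83e-06) and CPOX by 2.44 ± 0.18 (adjusted p = 2.85e-05), and UROD, UROS, FECH, ALAD and PPOX rose by between 0.82 and 1.75. ALAS1 fell by 1.14 ± 0.23 (adjusted p = 0.00539), from a mean of 42.1 to 18.7 TPM. SLC25A38 had a log2 fold change of -0.56 and did not pass. ALAD and FECH did not pass without hESC replicate 1, hESC replicate 2 or HPC replicate 2. These comparisons share GATA2-/- libraries with each other and with the passage from HE to HPC.

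The effect of the genotype was asked at each stage. In HE no member passed, where 0.0186% of genes tested did, and at an unadjusted p under 0.05 limma picked 1 member, against 4.85% of genes tested. That member was ALAS2, whose 6.47 and 1.93 TPM in GATA2-/- HE both lay below the 22.4 and 13.5 TPM of H1 HE. Its log2 fold change was -1.98 ± 0.41 (95% interval -2.92 to -1.04, adjusted p = 0.412), and its mean TPM was 4.28 times lower. It was lower in all 4 pairs of libraries. The estimate ran from -2.65 without GATA2-/- replicate 1 to -1.30 without GATA2-/- replicate 2. UROD had -0.50 ± 0.22, FECH -0.59 and UROS -0.29. With 1 library left out UROD ran from -0.80 to -0.20 and FECH from -1.02 to -0.16. The values of UROD, UROS, CPOX and PPOX were lower in both GATA2-/- libraries than in both H1 libraries. None of these members passed. ALAD had 0.33, ALAS1 0.30 and SLC25A38 0.05 in the other direction, ALAS1 being higher in both GATA2-/- libraries than in both H1 libraries.

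In HPCs no member passed either, against 0.0603% of genes tested, and none had an unadjusted limma p under 0.05, against 8.94%. ALAS2 was higher in both GATA2-/- libraries than in both H1 libraries, with a log2 fold change of 0.53 (95% interval -0.41 to 1.47, adjusted p = 0.725). FECH was higher in both too, at 0.39, and PPOX lower in both, at -0.41 (95% interval -0.82 to 0.01). UROD, UROS and CPOX differed by 0.10 or less on the log2 scale, with groups that overlapped. With 2 libraries a group these intervals leave room for changes of the size they span.

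**Figure D4:**
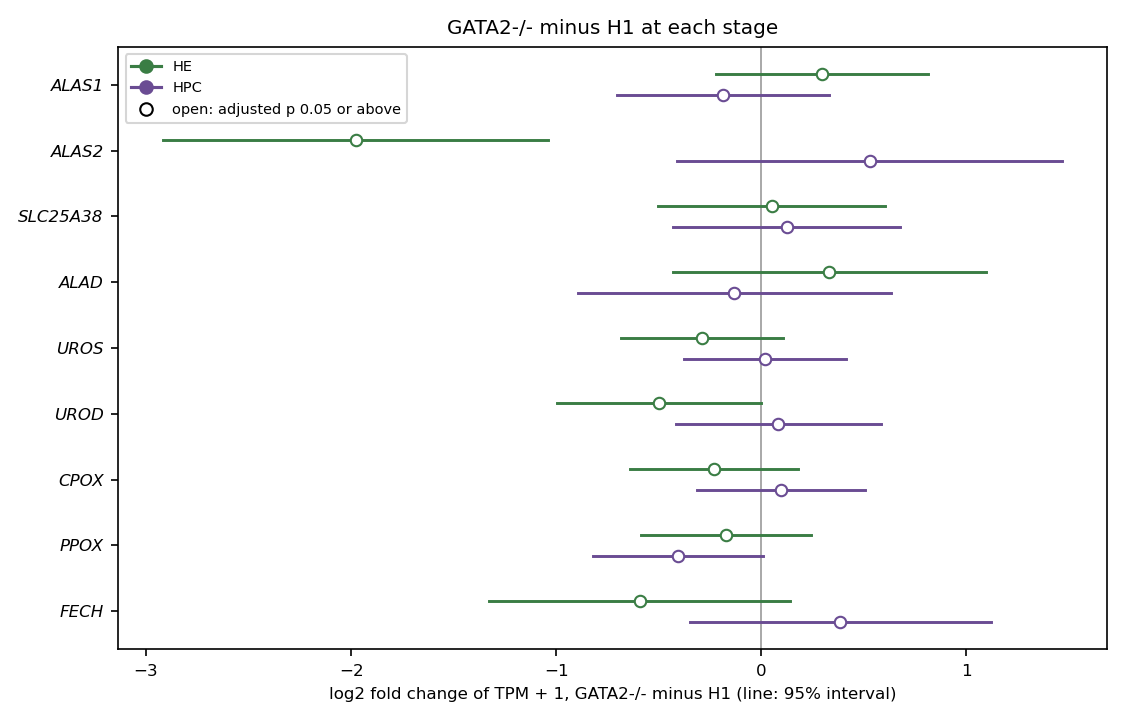
Log2 fold change of TPM + 1 between GATA2-/- and H1 cells in HE (green) and HPCs (purple), with 95% intervals. All points are open, none having an adjusted p under 0.05, and the ALAS2 interval in HE, from -2.92 to -1.04, lies away from 0.

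The change of the genotype difference between the stages was itself tested. No member and no gene of 21543 passed (0.0%), and at an unadjusted p under 0.05 limma picked 1 member against 5.95% of genes tested. For ALAS2 the difference in HPCs exceeded that in HE by 2.51 ± 0.58 on the log2 scale (95% interval 1.18 to 3.83, adjusted p = 0.621). FECH had 0.98, UROD 0.58 and UROS 0.31, and ALAS1 -0.48.

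Markers of blood and endothelial cells were read beside ALAS2 in HE. GATA1, which directs red cell development, was at 0 in both hESC libraries, and KLF1, an erythroid activator, at 0 and 0.66 TPM. GATA1 read 18.4 and 12.1 TPM in H1 HE and 2.78 and 1.37 in GATA2-/- HE, and KLF1 19.6 and 6.73 against 4.68 and 0.98. In HPCs they no longer separated, with 172 and 220 against 143 and 182 TPM for GATA1 and 89.6 and 96.1 against 92.9 and 102 for KLF1. The 18 erythroid markers summed to 293 and 198 TPM in H1 HE and 109 and 61.5 TPM in GATA2-/- HE, with RHAG, a red cell membrane gene, the most abundant in each and AHSP, SLC4A1 and TSPO2 at 0 in all 4 libraries. Of 17 tested none passed between the genotypes in HE (GATA1 had a log2 fold change of -2.41 and an adjusted p of 0.0814), 8 had an unadjusted p under 0.05, against 4.85% of all genes tested, 12 were lower, 3 higher and 2 equal at 0 TPM, and the median was -0.92 against -0.01 over all genes tested. In HPCs none of the 17 passed, 1 had an unadjusted p under 0.05, against 8.94% of all genes tested, and 12 were higher and 5 lower in GATA2-/- cells, with a median of 0.26 against 0.05. For the difference between the stages none passed, 6 had an unadjusted p under 0.05, against 5.95%, and 15 were positive and 2 negative, with a median of 1.44 against 0.08. Of 8 markers of blood cells in general, 6 were lower, 1 higher and 1 at 0 in every HE library, with a median of -0.53. None passed, and 2 had an unadjusted limma p under 0.05, against 4.85% of all genes tested. RUNX1, 1 of the 8, read 77.9 and 65.9 against 44.8 and 19.4 TPM. The 10 megakaryocyte markers summed to 150 and 127 against 86.0 and 57.7 TPM, ITGA2B being the most abundant. Of these markers 7 were lower, 2 higher and 1 at 0 in every HE library, with a median of -0.21, and 1 passed, against 0.0186% of all genes tested. It was PF4, a platelet chemokine, at 37.3 and 32.1 against 3.66 and 4.70 TPM, while GP1BB read 5.58 and 7.32 against 15.0 and 11.1 TPM. The PF4 call was lost when only the 4 HE libraries were fitted over the same 21543 genes, where no gene passed. Of 10 myeloid markers only 5 kept enough signal to be tested, and all 5 were lower without passing. Among them 2 had an unadjusted limma p under 0.05, against 4.85% of all genes tested. SPI1 read 35.8 and 22.2 against 6.87 and 2.41 TPM, while AZU1 lay near the floor, with 0.31 and 0.44 against 0 and 0 TPM. Of the 10 endothelial markers, whose sums were higher in both GATA2-/- HE libraries than in both H1 HE libraries, 8 were higher and 2 lower, none passed, and CD34 read 641 and 605 against 1060 and 925 TPM. The part of these genes, or of the cells that carry them, in the ALAS2 values was not tested.

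In HPCs the globins and ALAS2 did not run in parallel. HBE1, the embryonic beta-like globin, read 1496 and 4448 TPM in H1 and 1598 and 4487 TPM in GATA2-/- HPCs, so replicate 2 was well above replicate 1 in both genotypes, while ALAS2 was higher in replicate 2 in H1 and lower in GATA2-/- cells. The second libraries of HE and HPC carry the same tag in their headers, and its meaning is not stated. Mitochondrially encoded transcripts took 8.66% and 9.61% of TPM in H1 HPCs and 15.1% and 14.8% in GATA2-/- HPCs. The ALAS2 difference in HPCs was 0.63 on the log2 scale after they and the globins were taken out of the total.

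**Figure D5:**
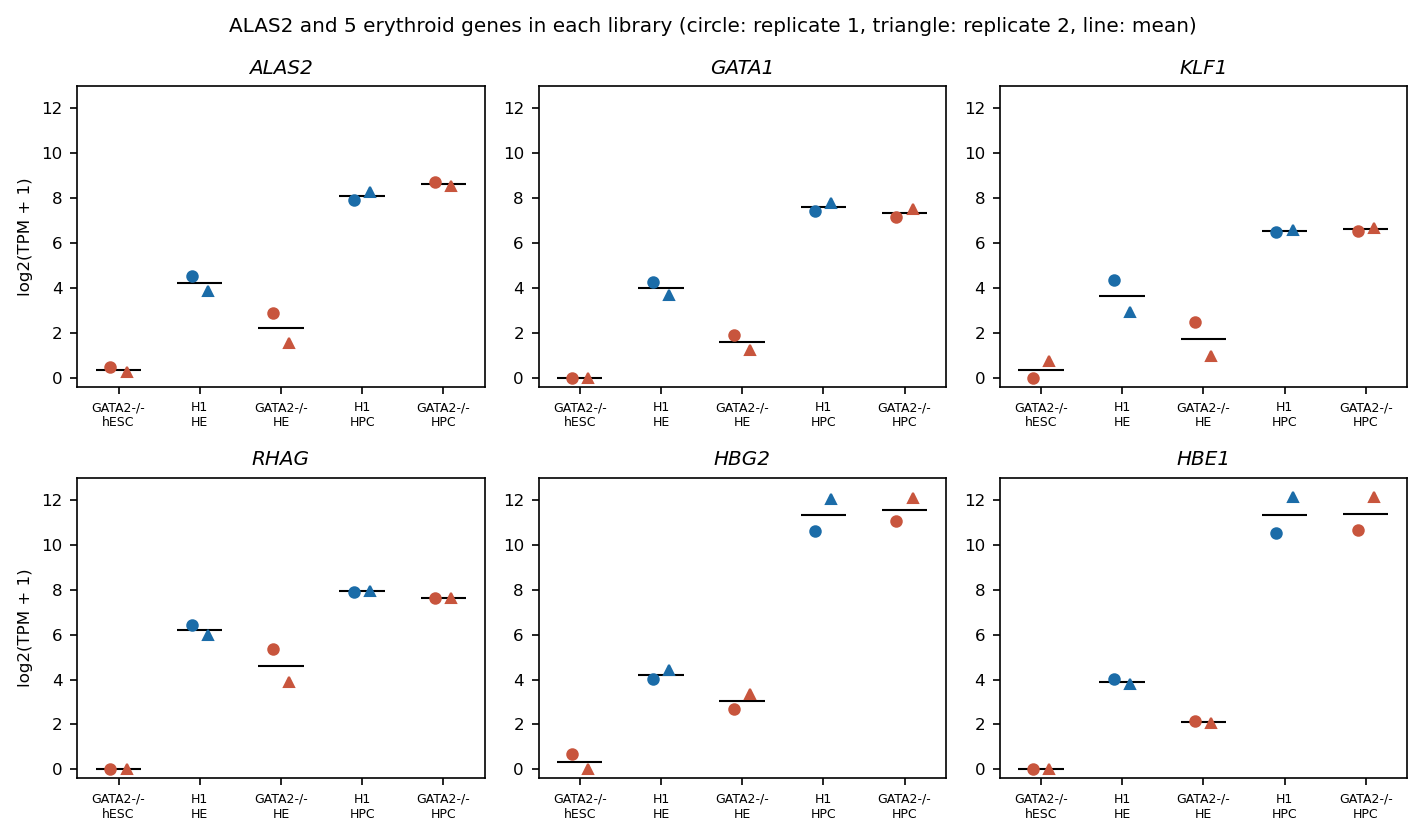
ALAS2 and GATA1, KLF1, RHAG, HBG2 and HBE1, chosen from the 18 erythroid markers after their values were seen, as log2(TPM + 1) by group, with a circle for replicate 1, a triangle for replicate 2 and a line at the mean. In HE these 6 genes are lower in both GATA2-/- libraries than in both H1 libraries, while of the 17 markers tested 12 were lower, 3 higher and 2 at 0 in every HE library, and in HPCs HBE1 differs more between replicates than between genotypes.

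The genes most like ALAS2 were sought by Pearson correlation of log2(TPM + 1) over the 10 libraries among 11923 genes with a mean of 5 TPM or more. Among the closest were ITGB3, an integrin of platelets and their precursors (r = 0.999), the cyclin CCND3 (0.996), the immediate early factor EGR3 (0.994) and NFE2 (0.993), a transcription factor of erythroid and megakaryocytic cells. The libraries fall into stages, so these values describe a shared rise from hESC to HPC, and no p is given. ITGB3 stood at 17.6 and 10.2 TPM in H1 HE, 3.87 and 1.08 in GATA2-/- HE, 171 and 161 in H1 HPCs and 218 and 203 in GATA2-/- HPCs. NFE2 stood at 36.2 and 17.2 TPM in H1 HE, 7.58 and 2.13 in GATA2-/- HE, 209 and 206 in H1 HPCs and 235 and 222 in GATA2-/- HPCs. Like ALAS2, to which they were matched, both were lower in GATA2-/- HE and higher in GATA2-/- HPCs than in H1, in every library. CCND3 and EGR3 were lower in GATA2-/- HE as well, but in HPCs their genotypes overlapped.

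Related genes were counted in lists. Among 18 genes of heme synthesis, transport and breakdown, 3 rose and 3 fell from HE to HPC in H1, where 3.32% of all genes tested rose and 6.59% fell, and 5 rose and 4 fell in GATA2-/- cells, against 5.5% and 7.24%. BLVRB, a biliverdin reductase, rose by a log2 fold change of 3.57 in H1 and 4.05 in GATA2-/- cells, from 15.4 and 16.6 to 155 and 261 TPM in H1. ABCB6, a porphyrin transporter, rose by 1.77 and 2.26, whereas HEBP1, a heme-binding protein, fell by 2.69 and 2.98. FLVCR2 fell by 1.73 and 1.57 near the floor. It read 3.27 and 3.73 TPM in H1 HE, 1.97 and 2.90 in GATA2-/- HE and at most 0.38 in the HPCs.

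Of 20 iron genes, 7 rose and none fell from HE to HPC in H1, and 8 rose and none fell in GATA2-/- cells, beside the same shares of all genes. TFRC, the transferrin receptor, went from 33.6 and 28.9 to 103 and 108 TPM in H1 (log2 fold change 1.73, adjusted p = 0.00247) and from 41.6 and 30.7 to 131 and 204 TPM in GATA2-/- cells (2.16, adjusted p = 0.000722). SLC25A37, the mitochondrial iron importer mitoferrin 1, rose by 1.62 in H1 and 2.92 in GATA2-/- cells, and the iron exporter SLC40A1 by 3.10 and 2.26. TFR2, a second transferrin receptor, rose by 1.91 and 2.11. The median over the list was 0.41 in H1 and 0.68 in GATA2-/- cells, against -0.01 and 0.03 over all genes tested.

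The 11 genes that supply glycine, succinyl-CoA and pyridoxal phosphate, the cofactor of ALAS, were counted likewise. None passed between HE and HPC in H1, where 3 had an unadjusted limma p under 0.05, against 22.4% of all genes tested. In GATA2-/- cells 5 did, against 26.8%, of which 1 rose and 1, the pyridoxal kinase PDXK, fell by 1.07 (adjusted p = 0.0113) after adjustment. From hESC to HE in GATA2-/- cells, 3 heme-handling genes rose and 7 fell, 3 iron genes rose and 6 fell, and SUCLA2, a succinyl-CoA synthetase subunit, fell by 1.09 as the only supply gene called, where 13.9% of all genes tested rose and 16.1% fell. From hESC to HPC 6 heme-handling genes rose and 7 fell, 8 iron genes rose and 2 fell, and 2 supply genes fell, against 14.2% and 16.4% of all genes. No gene of these lists passed between the genotypes in HE or in HPCs, where 3, 2 and 2 genes in HE and 1, 3 and 1 genes in HPCs had an unadjusted limma p under 0.05 in the heme-handling, iron and supply lists, against 4.85% of all genes in HE and 8.94% in HPCs.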

How the data were processed

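RNA of 10 samples was sequenced by the authors on an Illumina MiSeq, single-end, after TruSeq library preparation. They trimmed reads with Trimmomatic and mapped them with Bowtie to hg19, and the submitters' processing notes also name RSEM and, with no stated role, mm10. The deposited values are TPM per Ensembl gene, rounded by the authors to 2 decimals and summing to 998299 to 999106 per library. Read depth is not known, so the number of libraries limits the precision, and the authors' test, which needs alignments, was not repeated.

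The filter kept genes that reached 1 TPM in 2 or more libraries, and log2(TPM + 1) was fitted with limma 3.58.1 in R 4.3.3 (5 group means with a shared spread, eBayes with a trend, Benjamini-Hochberg adjustment over all 21543 genes, two-sided). A fold change on this scale understates the change of low genes. The method was tested on simulated data with known answers. Members, lists, tests and alternatives were chosen with earlier results of these data known. All members are named, GATA2, GATA1 and KLF1 are given in every library, up to 4 called genes with the largest fold changes were eligible in each related list, and genes among the 5 most correlated with ALAS2 are given. Some genes that these rules would name are not reported here. Marker genes named beyond these were chosen after their values were seen. Sequence sharing was counted in GENCODE v44 transcripts lifted to GRCh37, and promoters were read from RefSeq (GRCh38.p14), where 8 of the 9 members were listed. Other pseudocounts, filters, normalizations, sample sets, a replicate block and left-out libraries were tried.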

Additional observations from a re-analysis of the deposited data

Results flagged for a closer look

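ALAS2 drew attention because the genotype difference pointed in opposite directions at the 2 stages in every library. It was lower in both GATA2-/- HE libraries than in both H1 HE libraries and higher in both GATA2-/- HPC libraries than in both H1 HPC libraries. The difference of the differences was 2.51 on the log2 scale, with an adjusted p of 0.621 in limma, so it failed the correction over all genes, and it lay between 1.83 and 3.18 with 1 library left out. ITGB3 and NFE2 showed these directions too, but they were picked by likeness to ALAS2 over these same libraries, so this adds no support. CCND3 and EGR3, picked likewise, overlapped between the genotypes in HPCs. The GATA1 and KLF1 values given beside ALAS2 separated the genotypes in HE and not in HPCs, and over the 17 erythroid markers tested the difference of the differences was positive for 15 and negative for 2, with a median of 1.44 and none passing. Their part in the ALAS2 values was not tested.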

How the results depend on the processing

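The limits of depth and of 2 libraries a group hold throughout. The counts of members that passed stayed within 1.5 times the value reported under another pseudocount, no filter, a stricter filter, quantile normalization, rescaling, eBayes without a trend and the replicate block. A fit on the libraries of the comparison alone called 0 members from HE to HPC in H1 and 0 in GATA2-/- cells, where 6 were called in each. Genes at 0 in all the libraries compared stay in that fit, and with the filter applied within the 4 libraries, an alternative chosen after seeing the data, 5 members passed in each genotype. These fits differ only in the filter, so the genes that were kept moved the count from 0 to 5 with the libraries unchanged. Replicate numbers are shared by the groups, but nothing says what they mark. The replicate differences of HE correlated between the genotypes with r = 0.123 and those of HPC with r = 0.0551, and with the replicate number as a block 5 members passed from HE to HPC in H1, 6 in GATA2-/- cells, 5 from hESC to HE and 8 from hESC to HPC, with 0 between the genotypes at either stage.

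With 1 library left out the count was 2 to 4 in H1 and 5 in GATA2-/- cells from HE to HPC, 1 to 4 from hESC to HE, 6 to 8 from hESC to HPC and 0 between the genotypes. Small log2 fold changes changed sign. Under quantile normalization ALAS1 from HE to HPC in H1 became 0.0534 and SLC25A38 in the difference between stages -0.0367, and after rescaling without mitochondrial and globin genes, which moved the median of all genes from HE to HPC in GATA2-/- cells to 0.15 and that between the genotypes in HPCs to 0.14, ALAD in the former became 0.10. With 1 library left out, the genotype difference in HE ran from -0.15 to 0.25 for SLC25A38 and -0.16 to 0.82 for ALAD. In HPCs it ran from -0.39 to 0.0172 for ALAS1, -0.11 to 0.36 for SLC25A38, -0.43 to 0.16 for ALAD, -0.11 to 0.15 for UROS, -0.13 to 0.30 for UROD and -0.11 to 0.31 for CPOX. From HE to HPC it ran from -0.26 to 0.12 for ALAS1 in H1 and -0.54 to 0.44 for ALAD in GATA2-/- cells. From hESC to HE it ran from -0.0266 to 0.21 for UROS and -0.0278 to 0.31 for PPOX. In the difference between stages it ran from -0.16 to 0.31 for SLC25A38 and -0.95 to 0.028 for ALAD. None of these had passed, and the cause of the other changes was not tested.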
